A study of Homo sapiens with 18 samples.

Results

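The genes described here are 54 named lysosomal genes, taken as a list of gene symbols. They comprise 7 lysosomal membrane proteins, 10 cathepsins and other proteases, 15 glycosidases and sulfatases, 7 lipid hydrolases, activators and lipid carriers, and 15 subunits of the vacuolar proton pump (V-ATPase). They are 54 of the 35579 genes to which transcripts were assigned. Of them 53 passed the filter on low counts, and CTSO, a cysteine cathepsin, did not: no library held a rounded count of it. The rule names genes by function and uses no measured level. The list was still chosen with earlier results of these data known, so its counts are not those of an independent list.

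PolyA RNA was measured in U2OS, an established line from a human bone tumour (osteosarcoma), in 6 groups of 3 libraries that the labels call biological replicates. A pair of groups expressed mCherry-EWS-FLI1 and received LY2835219 at 7.5 µM for 6 h or for 24 h. LY2835219 is abemaciclib, which inhibits CDK4 and CDK6 (kinases of the cell cycle), and it is a weak base that gathers in lysosomes. The same cells without the compound were the untreated EWS-FLI1 group. A further pair carried an altered fusion, either mCherry-EWS-FLI1mut or else mCherry-EWS(YS37)-FLI1, without the compound, and the last group carried integrated mCherry alone. The fusion EWS-FLI1 drives Ewing sarcoma, so U2OS is a host from another tumour. The treatment protocol in the labels lists 0, 3 and 6 hours, whereas titles, characteristics and design give 6 h and 24 h, the times used here. The labels name a pair of library kits with no link to single libraries, and state neither the EWS-FLI1mut change, nor whether lines were clonal, nor whether untreated cells received a vehicle. Since no second line of a construct is labelled, p-values cover the spread between these libraries only.

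Lysosomes are the acidic organelles in which cells break down proteins, glycans and lipids. The V-ATPase keeps them acidic: its cytosolic V1 sector burns ATP to turn a rotor, and its membrane V0 sector carries protons inward. Many lysosomal genes share a promoter element with the core TCACGTGA, which the MiT/TFE transcription factors TFEB, TFE3 and MITF are known to bind. Weak bases are taken up into acidic lysosomes, where they become charged and accumulate.

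The promoters that hold this core are shown first, because the element is known from many lysosomal genes, though most listed genes with a promoter entry lacked it. RefSeq promoters of GRCh38.p14, from 250 bases before to 50 bases after a gene's start, were matched by symbol for 39 of the 54 genes. The core TCACGTGA, which reads the same on both strands, stood in 8 of the 39 (20.51%), against 1.176% of 27305 promoters of all genes. The core with G before it and C after it, also its own reverse complement, stood in 4 (10.26%), against 0.4212% of all. The 6-base CACGTG inside the core stood in 14 (35.9%), against 8.775% of all. The 8 genes with the core were ATP6V0D1, ATP6V1G1, CLN3, CTSA, GAA, GALNS, LAMP1 and MCOLN1. Windows around 6 of the cores are printed 5′ to 3′ on the gene's own strand, with the core in capitals.
ATP6V0D1, chr16:67481184-67481243, minus strand: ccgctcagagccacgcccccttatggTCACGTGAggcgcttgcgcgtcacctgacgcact
ATP6V1G1, chr9:114587684-114587743, plus strand: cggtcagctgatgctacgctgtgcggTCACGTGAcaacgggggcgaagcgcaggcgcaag
MCOLN1, chr19:7522556-7522615, plus strand: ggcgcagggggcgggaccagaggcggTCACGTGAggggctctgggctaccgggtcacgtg
LAMP1, chr13:113297184-113297238, plus strand: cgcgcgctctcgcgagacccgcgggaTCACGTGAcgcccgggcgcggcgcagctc
CTSA, chr20:45891283-45891334, plus strand: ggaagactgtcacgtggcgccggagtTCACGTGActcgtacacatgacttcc
GAA, chr17:80101523-80101580, plus strand: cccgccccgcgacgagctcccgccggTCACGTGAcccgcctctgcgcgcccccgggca
The printed cores of ATP6V1G1 and GAA have this G and C on their sides, and MCOLN1, LAMP1 and GAA each held 2 copies of the core. A match describes letters and not binding.

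Libraries held 16261034 to 20270637 estimated counts. Between 2.59% and 2.74% of them lay on transcripts without a gene match and were left out. FLI1 checked the labels: TMM-scaled CPM (counts scaled to library size with edgeR's composition factors) were 232 to 265 in untreated EWS-FLI1 cells, 388 to 430 at 6 h and 225 to 244 at 24 h of LY2835219, 626 to 664 with EWS-FLI1mut, 987 to 1069 with EWS(YS37)-FLI1 and 0.0534 to 1.16 with mCherry alone. Reads of the transgene and of the endogenous gene are counted together here. No pair of libraries of a group agreed within sampling noise. The share of counts from mitochondrial genes was 4.55% to 5.10% in untreated EWS-FLI1 cells, 6.03% to 6.31% at 6 h and 5.87% to 6.59% at 24 h. Its part in the results was not tested beyond leaving those genes out, which left 41 listed genes higher and 2 lower at 6 h, and 39 and 5 at 24 h.

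By length-normalised level (TPM, a gene's share of transcripts) the family spanned a wide range. NPC2, the luminal sterol carrier, averaged 821.6 TPM over the 18 libraries, the tetraspanin CD63 793.5, PSAP, the precursor of the saposins, 665.4, the cysteine protease CTSB 497.5 and the proteolipid ring subunit ATP6V0C 288. The lowest tested genes were the V0 subunit ATP6V0A1 at 1.61 TPM, the collagen-degrading cathepsin CTSK at 3.13 and the glycosidase IDUA at 6.52. The sialidase NEU1 stood at 6.66 TPM with identical transcript copies without a gene match left out, and with them its group means were 22.7 to 95.1 TPM. CTSO did not exceed 8.5e-05 TPM in a library. Summed over the 54 genes, untreated EWS-FLI1 cells held 5665 ± 30.7 TPM (SD, n = 3), 6759 ± 208 at 6 h and 8083 ± 405 at 24 h of LY2835219. The sum was 6023 ± 117 with EWS-FLI1mut, 5208 ± 261 with EWS(YS37)-FLI1 and 4984 ± 104 with mCherry alone. The 3 LY2835219 time points did not overlap in this sum, which is a share of all transcripts and was not tested.

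**Figure D1:**
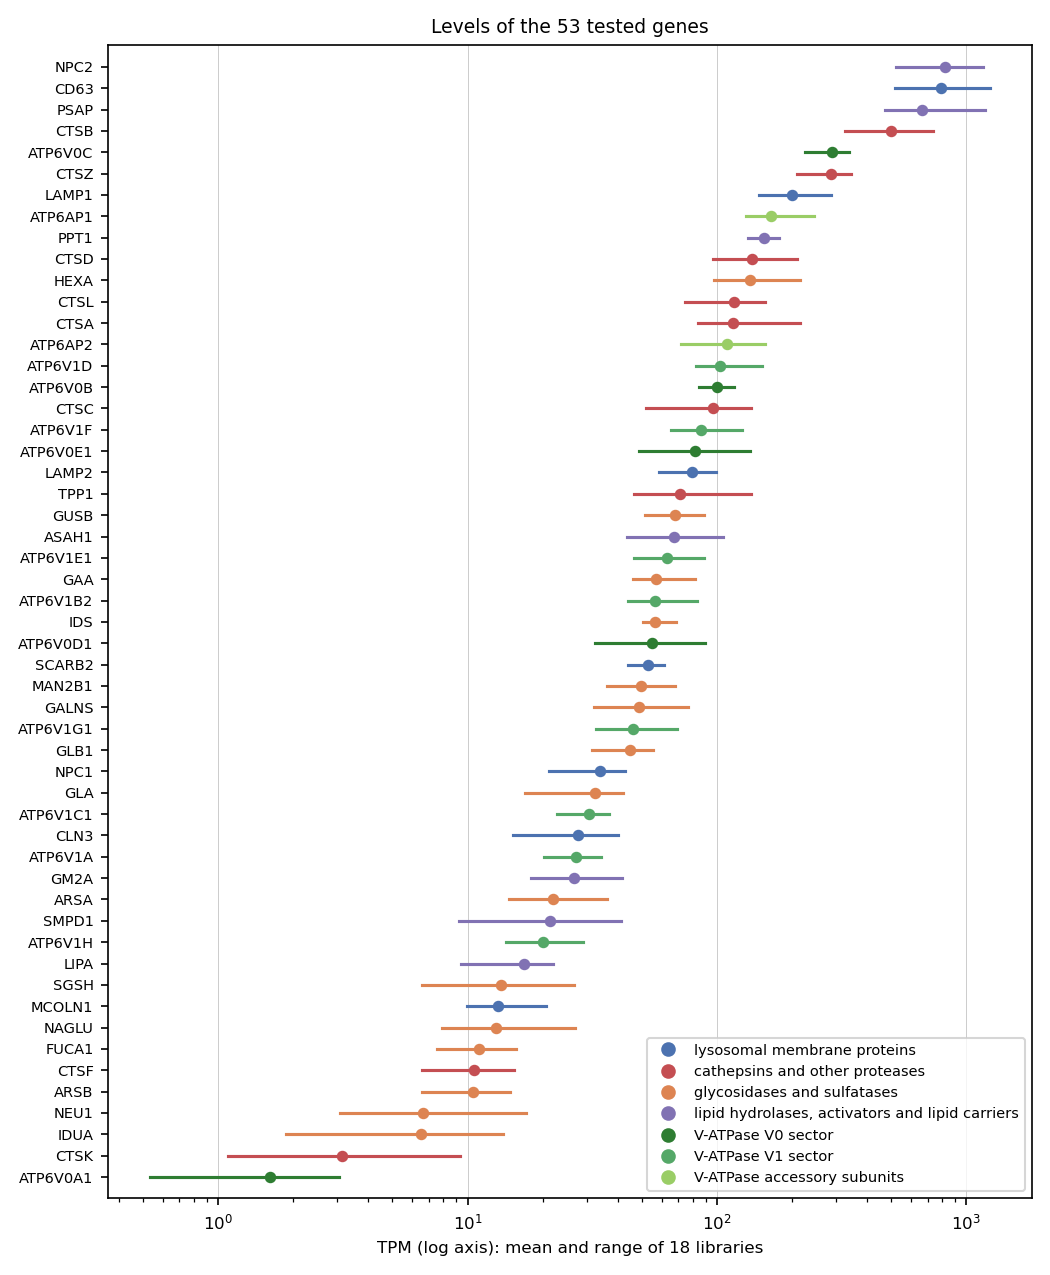
Mean TPM of the 53 tested genes over 18 libraries (point) with the lowest and highest library (line), on a log axis, coloured by role. NPC2, CD63 and PSAP stand at the top with means of 821.6, 793.5 and 665.4 TPM, and ATP6V0A1 stands at the bottom with 1.61 TPM. NEU1 is drawn without its unmatched copies.

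In EWS-FLI1 cells treated with LY2835219 for 6 h, most lysosomal genes were higher than in untreated EWS-FLI1 cells, and the median change was larger among V-ATPase subunits than among the others. Of the 53 genes 42 rose and 2 fell, where 64.9% of all 16786 genes tested were called, 31.6% higher and 33.3% lower. The median log2 fold change was 0.49 for the family and -0.02 for all genes. A gene was called at a Benjamini-Hochberg adjusted p under 0.05 in edgeR's quasi-likelihood test, and log2 fold changes are given with their standard error. Of the 15 V-ATPase genes 13 rose and 0 fell, with a median of 0.73, and of the 38 others 29 rose and 2 fell, with a median of 0.41. Without scaling factors 29 of the 53 rose and 6 fell, all genes had a median of -0.27, and the V-ATPase genes had 12 rises and 0 falls; on the log2(TPM + 1) scale with limma 22 of the 53 rose and 8 fell, of which the V-ATPase genes had 9 rises and 1 fall. On that scale the medians at 6 h were 0.33 for the V-ATPase genes and 0.089 for the others.

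Apart from the low-level CTSK, the largest rise at 6 h was in the V0 sector. ATP6V0E1, the small membrane subunit e, had 47.4, 54.2 and 54.4 CPM in the untreated libraries, 144, 134 and 136 at 6 h and 93.7, 109 and 105 at 24 h. All 3 groups stayed apart, with the 6 h libraries highest. The log2 fold change at 6 h against untreated was 1.41 ± 0.08 (SE; edgeR adjusted p = 4.08e-13), and 0.98 ± 0.08 at 24 h. ATP6V0D1, the subunit d that joins V0 to the rotor and whose promoter is printed above, had 43.7, 43.8 and 45.7 CPM untreated, 100.0, 106 and 91.9 at 6 h and 81.4, 89.4 and 74.8 at 24 h. Again no group overlapped another, and the changes against untreated were 1.16 ± 0.07 at 6 h and 0.88 ± 0.07 at 24 h. In TPM the 6 h and 24 h libraries of ATP6V0D1 overlapped. ATP6V0B and ATP6V0C, proteolipids of the membrane ring, rose at 6 h by 0.67 ± 0.07 and 0.63 ± 0.07, and the ATP6V0B call ended on the log2(TPM + 1) scale (0.14). At 24 h ATP6V0B still passed the test at 0.19 ± 0.07, though not without single libraries of either group and not on the TPM scale (-0.0021), and ATP6V0C did not at 0.05 ± 0.07 (adjusted p = 0.536). Of the 31-base stretches of the main ATP6V0C transcript, 89.2% occur in other genes, so its counts are uncertain. ATP6V0A1, the subunit a of low level here, was not called at either time (-0.52 ± 0.41 and 0.25 ± 0.39).

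In the V1 sector 7 of 8 subunits rose at 6 h and 8 of 8 at 24 h. Of all genes 31.6% and 23.3% rose at these times. ATP6V1B2, a nucleotide-binding subunit of the V1 head, had 87.5, 88.7 and 90.1 CPM untreated, 206, 198 and 192 at 6 h and 127, 125 and 129 at 24 h. ATP6V1E1, of the peripheral stalk, had 41.6, 41.2 and 38.6 untreated, 81.1, 89.1 and 89.5 at 6 h and 53.6, 57.7 and 54.8 at 24 h. Both genes were highest at 6 h and intermediate at 24 h with no overlap, and their log2 fold changes at 6 h were 1.16 ± 0.06 (SE; edgeR adjusted p = 1.88e-14) and 1.10 ± 0.08 (SE; edgeR adjusted p = 9.74e-12). ATP6V1G1, which pairs with subunit E in that stalk, had 39.5, 41.7 and 38.0 CPM untreated, 86.2, 82.0 and 88.1 at 6 h and 54.1, 63.4 and 69.0 at 24 h. ATP6V1D, of the central rotor, had 68.6, 67.0 and 66.1, 133, 135 and 137 and 88.6, 91.1 and 92.3 in the same order. Both again had the 6 h libraries highest and no overlap, at 1.10 ± 0.09 and 1.00 ± 0.06 at 6 h. In TPM the 6 h and 24 h libraries of ATP6V1G1 overlapped. ATP6V1C1, a stalk subunit, rose by 0.85 ± 0.06 at 6 h, the catalytic ATP6V1A by 0.54 ± 0.06 and the regulatory ATP6V1H by 0.36 ± 0.09. The calls of ATP6V1A and ATP6V1H at 6 h ended on the log2(TPM + 1) scale, at 0.21 and 0.015. ATP6V1F, a second rotor subunit, was not called at 6 h (0.24 ± 0.11, adjusted p = 0.0699) and rose by 0.65 ± 0.11 at 24 h. Of the accessory proteins, ATP6AP1 rose by 0.45 ± 0.06 at 6 h and 0.65 ± 0.06 at 24 h, and ATP6AP2, the prorenin receptor, by 0.73 ± 0.06 and 0.55 ± 0.06. The ATP6AP1 call at 6 h ended on the log2(TPM + 1) scale (0.060).

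**Figure D2:**
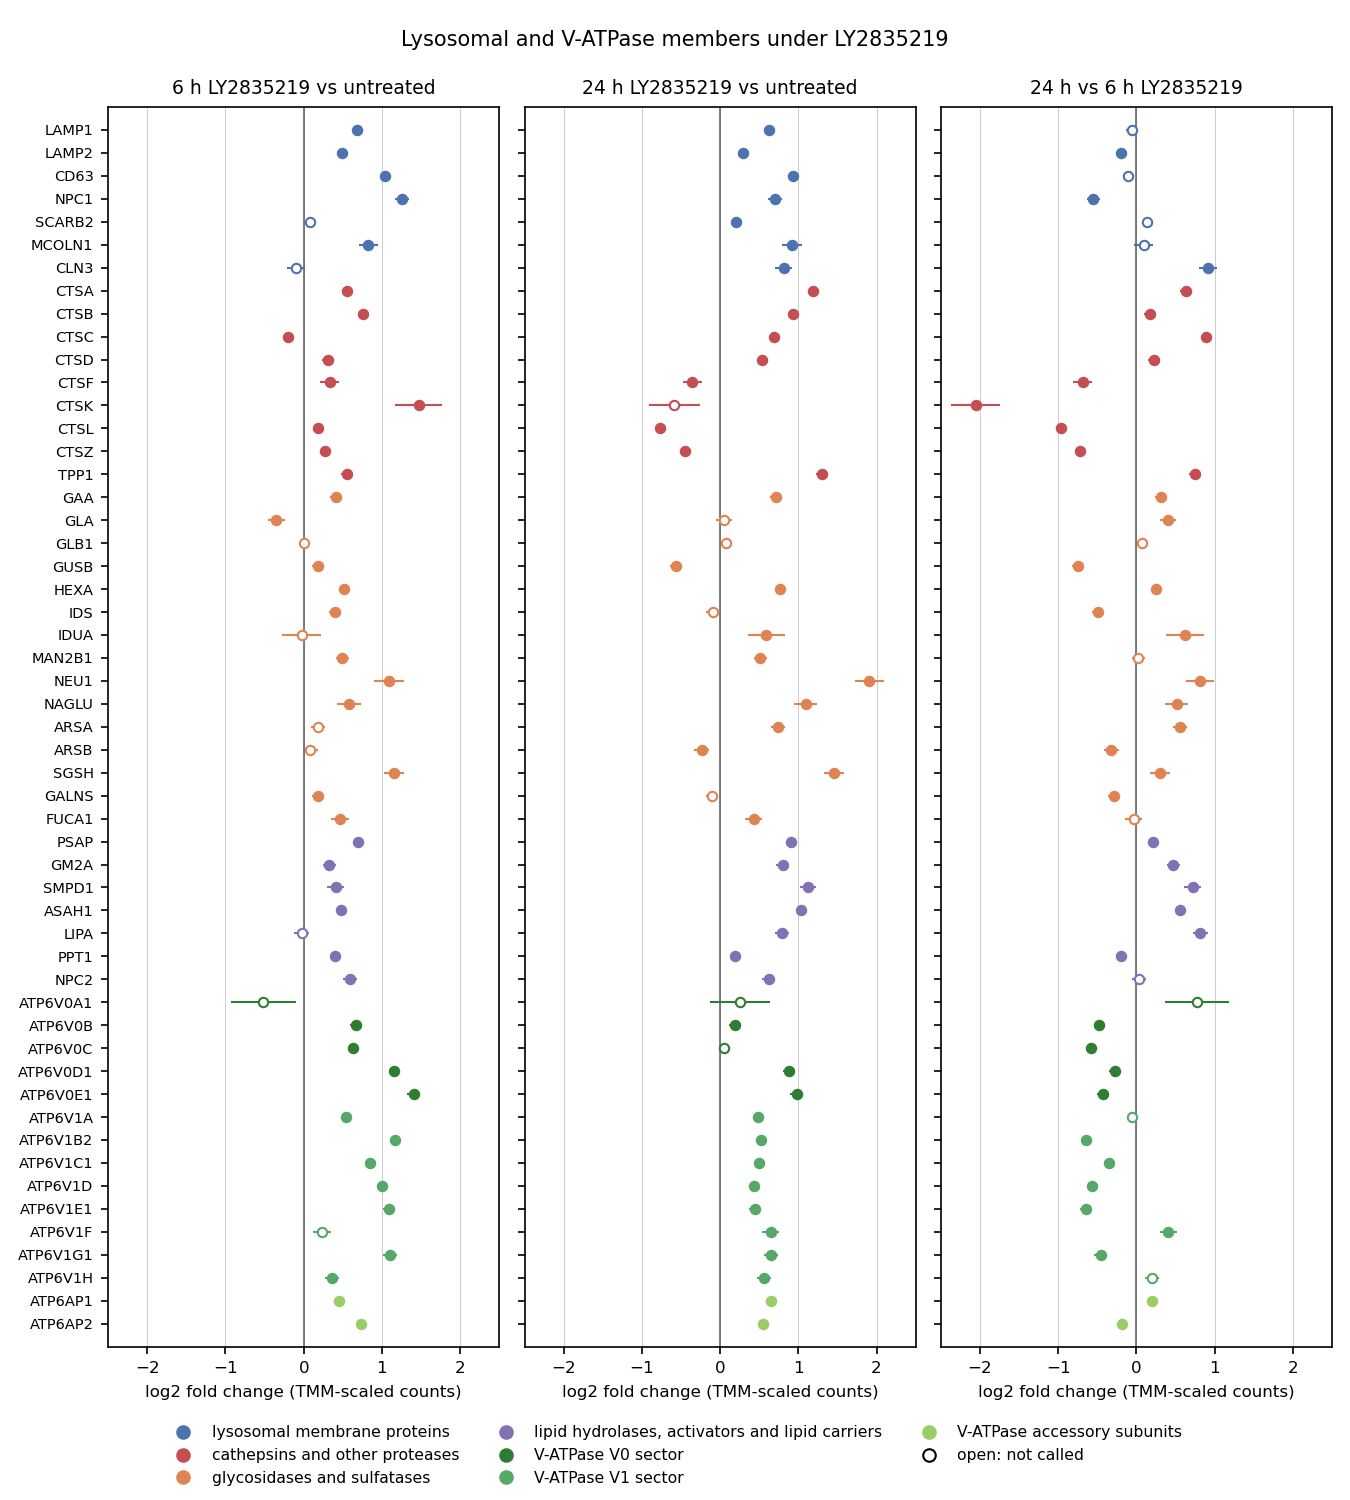
Log2 fold changes of the tested genes at 6 h and at 24 h of LY2835219 against untreated EWS-FLI1 cells, and at 24 h against 6 h, with standard errors, grouped by role (filled where called, open where not). At 6 h the V-ATPase genes lie between -0.52 and 1.41, and at 24 h the sialidase NEU1 stands furthest to the right at 1.91.

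Among the membrane proteins 5 of 7 rose at 6 h and 7 of 7 at 24 h, beside 31.6% and 23.3% of all genes. NPC1, which exports cholesterol from the lysosome, had 35.3, 29.2 and 33.5 CPM untreated, 79.8, 79.8 and 74.2 at 6 h and 55.6, 54.1 and 49.97 at 24 h. The 6 h libraries were highest and no groups overlapped, with log2 fold changes of 1.25 ± 0.09 (SE; edgeR adjusted p = 1.92e-11) at 6 h and 0.70 ± 0.09 at 24 h. On the log2(TPM + 1) scale these were 0.50 and 0.36, the second no longer called, and the main NPC1 transcript shares 40.4% of its 31-base stretches with other genes. In TPM the 24 h libraries of NPC1 overlapped those of both other groups. MCOLN1, the calcium channel TRPML1, had 10.7, 12.1 and 11.7 CPM untreated, 24.0, 19.8 and 17.5 at 6 h and 23.2, 22.3 and 19.8 at 24 h. Both treated groups lay above the untreated one and overlapped each other, at 0.83 ± 0.12 and 0.92 ± 0.12. CD63 had 396, 381 and 432 CPM untreated, 859.8, 839 and 781 at 6 h and 746, 799.6 and 762 at 24 h, with both treated groups above the untreated one and overlapping each other. Its log2 fold changes were 1.04 ± 0.07 and 0.93 ± 0.07. The major membrane glycoproteins LAMP1 and LAMP2 rose by 0.69 ± 0.07 and 0.49 ± 0.06 at 6 h, and by 0.63 ± 0.07 and 0.29 ± 0.06 at 24 h, where the LAMP2 call ended on the log2(TPM + 0.1) scale (0.18). CLN3, the membrane protein lost in juvenile Batten disease, was not called at 6 h (-0.10 ± 0.11) and rose by 0.81 ± 0.11 at 24 h, though 98% of the 31-base stretches of its main transcript occur in another gene. SCARB2, the sorting receptor of glucocerebrosidase, was not called at 6 h (0.08 ± 0.06). At 24 h it passed the test at 0.21 ± 0.06, but not without untreated replicate 3 or 24 h replicate 2, and its direction turned to -0.021 with transcript length offsets and -0.084 on the TPM scale.

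At 24 h of LY2835219 the larger rises lay among luminal hydrolases and the lipid genes. Of the 53 genes 41 rose and 5 fell, where 48% of all genes were called, 23.3% higher and 24.6% lower. The median was 0.59 for the family, 0.66 for the 38 genes outside the V-ATPase, 0.52 for the 15 V-ATPase genes and 0.03 for all genes. Both treated groups share the untreated libraries, so the values of the 2 times are set side by side and not counted as independent. NEU1, which removes sialic acid, had 4.96, 7.14 and 6.82 CPM untreated, 15.04, 15.2 and 10.1 at 6 h and 24.8, 24.9 and 21.4 at 24 h. The groups did not overlap, and the log2 fold changes were 1.09 ± 0.19 at 6 h and 1.91 ± 0.19 (SE; edgeR adjusted p = 1.03e-08) at 24 h. The 4 NEU1 transcripts have between 3 and 6 identical copies each in the table without a gene match, and with all of them added NEU1 held 27.2 ± 4.62 TPM untreated, 42.8 ± 8.99 at 6 h and 95.1 ± 8.94 at 24 h. CTSA, the carboxypeptidase that protects NEU1, had 113, 114 and 109.9 CPM untreated, 168, 172 and 155 at 6 h and 264, 275 and 228 at 24 h. Each later group lay above the earlier ones, and the changes were 0.56 ± 0.07 and 1.19 ± 0.07.

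The 15 glycosidases and sulfatases, NEU1 included, gave 10 rises and 1 fall at 6 h and 9 rises and 2 falls at 24 h. SGSH, a sulfatase of heparan sulfate, had 13.2, 8.61 and 11.5 CPM untreated, 22.5, 26.7 and 24.9 at 6 h and 33.6, 30.8 and 27.2 at 24 h. The groups did not overlap, and SGSH rose by 1.15 ± 0.13 at 6 h and 1.46 ± 0.13 at 24 h. NAGLU, which acts on the same glycan, rose by 0.58 ± 0.15 and 1.09 ± 0.15. GAA, the acid glucosidase that breaks down glycogen, rose by 0.41 ± 0.08 and 0.72 ± 0.08, and HEXA, the alpha subunit of hexosaminidase, by 0.51 ± 0.05 and 0.76 ± 0.05. On the log2(TPM + 1) scale the 6 h calls of GAA (0.013), HEXA (0.10) and NAGLU (0.19) ended, and those of GAA and NAGLU also ended without scaling factors. HEXA and MAN2B1 share 36.2% and 34.2% of the 31-base stretches of their main transcripts with other genes. MAN2B1, a mannosidase, and FUCA1, a fucosidase, rose by 0.49 ± 0.08 and 0.46 ± 0.11 at 6 h, and by 0.52 ± 0.08 and 0.43 ± 0.11 at 24 h. The 6 h calls of MAN2B1 and FUCA1 also ended on the log2(TPM + 1) scale. In TPM their untreated and 6 h libraries overlapped. MAN2B1 had 45.1, 44.4 and 47.3 TPM untreated, against 63.6, 44.3 and 54.6 at 6 h. FUCA1 had 11.2, 9.17 and 11.5, against 11.7, 10.4 and 11.6. ARSA, a sulfatase of sulfatide, was not called at 6 h (0.18 ± 0.09) and rose by 0.74 ± 0.09 at 24 h. IDUA, an iduronidase, was not called at 6 h (-0.03 ± 0.25) and passed at 24 h (0.59 ± 0.24), though not without single libraries, with DESeq2 or on the TPM scale. GLB1, the galactosidase, was not called at either time (0.01 ± 0.06 and 0.08 ± 0.06).

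Several genes of this class did not rise at both times. GUSB, the glucuronidase, had 94.3, 101 and 94.3 CPM untreated, 112, 110.2 and 106 at 6 h and 66.2, 67.7 and 61.3 at 24 h. The groups did not overlap, the 24 h libraries being lowest, at -0.57 ± 0.07 (SE; edgeR adjusted p = 3.15e-07) against untreated. Its 6 h value of 0.18 ± 0.07 passed the test but was lost without single libraries, and it turned to -0.066 without scaling factors and to -0.26 on the TPM scale. GLA, the galactosidase of Fabry disease, fell at 6 h (-0.35 ± 0.10, adjusted p = 0.00539), a call that ended at 0.0572 without 6 h replicate 1, and was not called at 24 h (0.05 ± 0.10). ARSB, a sulfatase, passed as lower at 24 h (-0.23 ± 0.10), but not without single libraries or with DESeq2, and was 0.16 with transcript length offsets. IDS, another sulfatase, rose at 6 h (0.40 ± 0.08), a value of -0.060 on the TPM scale. It was not called at 24 h (-0.10 ± 0.08). GALNS rose at 6 h (0.19 ± 0.08) and was not called at 24 h (-0.10 ± 0.08). The GALNS call at 6 h ended on the log2(TPM + 1) scale. In TPM its libraries overlapped, with 55.2, 56.5 and 53.7 untreated, against 60.3, 63.0 and 53.2 at 6 h. Main transcripts of IDS share 55.6% of their 31-base stretches with other genes.

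Of the 9 tested proteases 8 rose and 1 fell at 6 h, and 5 rose and 3 fell at 24 h. Among all genes 31.6% rose and 33.3% fell at 6 h, and 23.3% rose and 24.6% fell at 24 h. TPP1, a tripeptidyl peptidase, had 110.5, 107 and 106 CPM untreated, 167, 167 and 141 at 6 h and 275, 269.8 and 252 at 24 h. The 3 groups followed each other upward without overlap, and TPP1 rose by 0.56 ± 0.08 at 6 h and 1.30 ± 0.08 (SE; edgeR adjusted p = 1.28e-12) at 24 h. CTSB rose by 0.76 ± 0.07 and 0.94 ± 0.07, and the aspartic protease CTSD by 0.32 ± 0.08 and 0.54 ± 0.08, where the CTSD value at 6 h was -0.042 on the TPM scale and its main transcript shares 60.9% of its 31-base stretches with another gene. CTSC, which activates serine proteases of granules, had 92.7, 93.5 and 103 CPM untreated, 81.3, 85.6 and 84.1 at 6 h and 151, 155 and 159.7 at 24 h. The 6 h libraries were lowest and the 24 h libraries highest, without overlap. CTSC fell at 6 h (-0.21 ± 0.06) and rose at 24 h (0.68 ± 0.05). CTSL, a cysteine endopeptidase, had 132, 132 and 137 CPM untreated, 148, 153 and 155 at 6 h and 79.8, 81.3 and 73.6 at 24 h. Its 24 h libraries lay far below both other groups, at -0.77 ± 0.06 (SE; edgeR adjusted p = 2.32e-10) against untreated. The rise at 6 h (0.19 ± 0.06) turned to -0.057 without scaling factors and -0.20 on the TPM scale.

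CTSK, the collagenase of osteoclasts, had 4.04, 1.94 and 1.67 CPM untreated, 6.30, 8.78 and 6.21 at 6 h and 1.11, 1.71 and 2.28 at 24 h. The 6 h libraries lay above all others, at 1.47 ± 0.30 (SE; edgeR adjusted p = 0.000175) against untreated, and the 24 h and untreated libraries overlapped (-0.58 ± 0.32, not called). In TPM the groups overlapped, with 4.68, 9.30 and 4.98 at 6 h, against 5.62, 2.32 and 1.55 in untreated cells. Over the alternatives the adjusted p at 6 h lay between 1.55e-06 and 0.0582, the last on log2(TPM + 1) without a filter. CTSZ, a carboxypeptidase, and CTSF, a cysteine protease, passed as higher at 6 h (0.27 ± 0.06 and 0.33 ± 0.12) and as lower at 24 h (-0.45 ± 0.06 and -0.35 ± 0.12). On the TPM scale the 6 h values were -0.10 for CTSZ and -0.096 for CTSF, the CTSF call at 6 h was lost without single libraries, and that at 24 h ended at 0.056 without 24 h replicate 3.

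**Figure D3:**
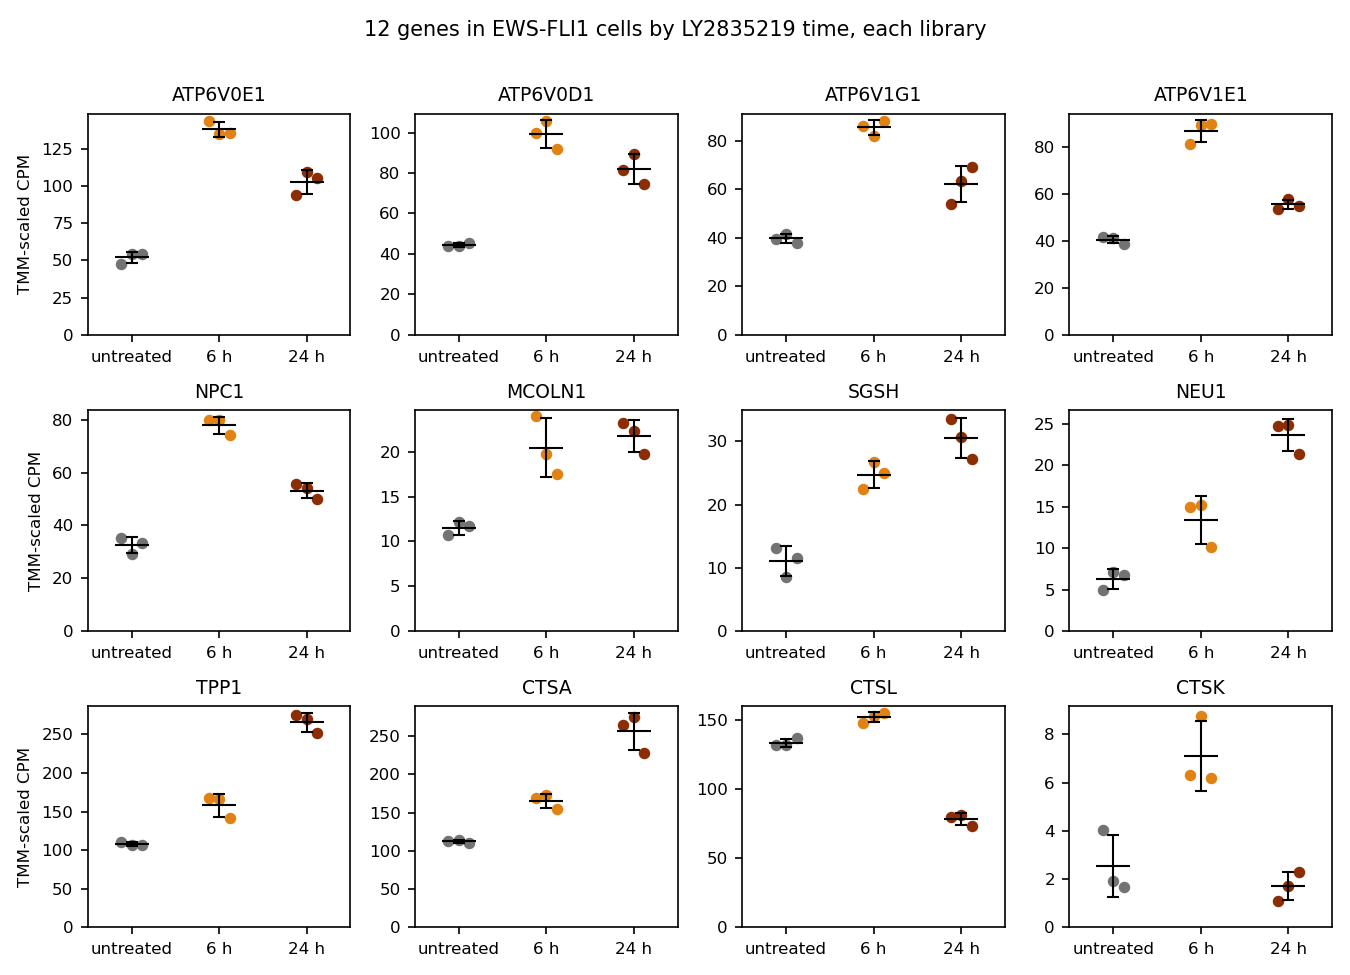
TMM-scaled CPM of 12 genes in EWS-FLI1 cells that were untreated or treated with LY2835219 for 6 h or 24 h. Points are libraries, and bars are the mean and SD of 3. ATP6V0E1, ATP6V0D1, ATP6V1G1, ATP6V1E1 and NPC1 were highest at 6 h, NEU1, TPP1 and CTSA were highest at 24 h, and CTSL was lowest at 24 h. In TPM, not drawn here, the 6 h and 24 h libraries of ATP6V0D1, ATP6V1G1 and NPC1 overlapped.

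Of the 7 lipid genes 6 rose at 6 h and 7 at 24 h, beside 31.6% and 23.3% of all genes. SMPD1, acid sphingomyelinase, had 21.0, 20.8 and 24.98 CPM untreated, 31.1, 31.2 and 26.4 at 6 h and 47.4, 54.3 and 44.1 at 24 h. Each later group lay above the earlier ones. SMPD1 rose by 0.41 ± 0.11 at 6 h and 1.13 ± 0.10 (SE; edgeR adjusted p = 4.64e-09) at 24 h. The 6 h call ended with transcript length offsets, without scaling factors and on the log2(TPM + 1) scale (0.088), where the untreated and 6 h libraries overlapped. ASAH1, acid ceramidase, had 52.5, 51.7 and 50.5 CPM untreated, 69.8, 70.5 and 75.5 at 6 h and 105, 105 and 108 at 24 h. Again each later group lay above the earlier ones. Its log2 fold changes were 0.48 ± 0.06 and 1.04 ± 0.06. PSAP rose by 0.69 ± 0.06 and 0.91 ± 0.06, NPC2 by 0.59 ± 0.09 and 0.62 ± 0.09, and GM2A, the activator of ganglioside breakdown, by 0.33 ± 0.08 and 0.80 ± 0.08. At 6 h the calls of ASAH1 (0.14) and NPC2 (0.17) ended on the log2(TPM + 1) scale, and that of GM2A without scaling factors (0.084). LIPA, the acid lipase of cholesteryl esters, was not called at 6 h (-0.03 ± 0.10) and rose by 0.79 ± 0.09 at 24 h. PPT1, a thioesterase that removes palmitate from proteins, rose by 0.40 ± 0.06 at 6 h, which was -0.056 on the TPM scale. At 24 h its 0.20 ± 0.06 passed the test, but not without untreated replicate 1 or 3 or 24 h replicate 2.

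Set directly against each other under TMM scaling, most pump subunits were lower at 24 h than at 6 h, and more of the other genes were higher than lower. Of the 53 genes 21 were higher and 21 lower at 24 h, where 62.9% of all genes were called, 32.6% higher and 30.3% lower, and the medians were 0.03 for the family and 0.05 for all genes. Of the 15 V-ATPase genes 2 were higher and 10 lower at 24 h than at 6 h (median -0.35), and of the other 38, 19 were higher and 11 lower (median 0.15). The pump's split was 3 and 9 with upper-quartile scaling, 5 and 5 without scaling factors and 4 and 4 on the log2(TPM + 1) scale, with medians of -0.24, -0.09 and -0.06. Without scaling factors 31 of the 53 genes were higher and 12 lower, and on the log2(TPM + 1) scale 27 and 9. The pump's median was thus negative under each of these scalings. The split of its calls depended on the scaling and was even without scaling factors and on the log2(TPM + 1) scale. All genes had a median of 0.05 with TMM scaling, against 0.31 without it.

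By role, the lipid genes had 5 higher and 1 lower at 24 h than at 6 h, the glycosidases and sulfatases 8 and 4, the proteases 5 and 4 and the membrane proteins 1 and 2. The V0 sector had 0 higher and 4 lower, the V1 sector 1 and 5, and the accessory subunits 1 each way. The largest called increases were those of CLN3 (0.91 ± 0.11), CTSC (0.89 ± 0.06), LIPA (0.82 ± 0.09), NEU1 (0.82 ± 0.18), TPP1 (0.75 ± 0.07) and SMPD1 (0.72 ± 0.10). CTSA, IDUA, ASAH1, ARSA and NAGLU followed at 0.63 ± 0.07, 0.62 ± 0.24, 0.56 ± 0.06, 0.56 ± 0.09 and 0.51 ± 0.15, of which IDUA and NAGLU were lost without single libraries. GM2A was 0.47 ± 0.08, but -0.51 with transcript length offsets and -0.25 on the TPM scale. The largest decreases were those of CTSK (-2.05 ± 0.32), CTSL (-0.96 ± 0.06), GUSB (-0.75 ± 0.07), CTSZ (-0.72 ± 0.06) and CTSF (-0.69 ± 0.12). Among pump subunits ATP6V1B2 (-0.64 ± 0.06), ATP6V1E1 (-0.64 ± 0.07), ATP6V0C (-0.58 ± 0.07), ATP6V1D (-0.57 ± 0.06) and ATP6V0B (-0.47 ± 0.07) were lower at 24 h, as were NPC1 (-0.55 ± 0.09) and IDS (-0.49 ± 0.08). ATP6V0D1 (-0.28 ± 0.07) and ATP6V1C1 (-0.35 ± 0.06) also passed as lower, but stood at 0.0021 and 0.012 on the TPM scale, where the calls of ATP6V0B (-0.15), NPC1 (-0.14) and IDS (-0.13) ended. ATP6V0E1 (-0.43) and ATP6V1G1 (-0.46) passed as lower too, but not under every alternative, where their weakest values were -0.17 and -0.18.

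**Figure D4:**
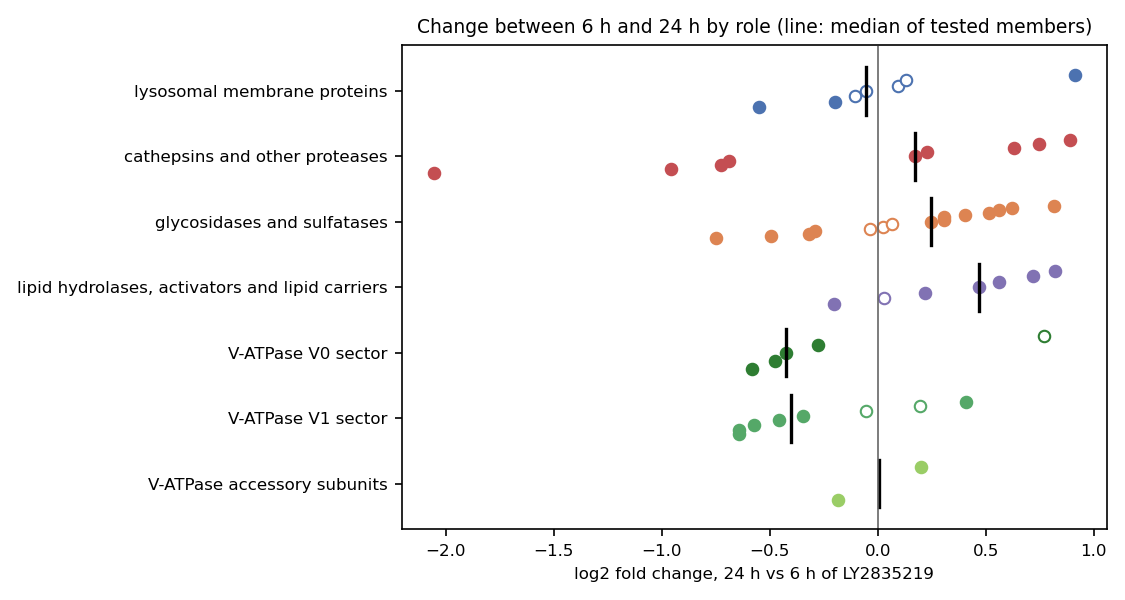
Log2 fold change at 24 h against 6 h of LY2835219 for each tested gene (filled where called, open where not), by role, with the median of the role as a line. V0 and V1 medians lie left of 0, and the medians of proteases, glycosidases and sulfatases, and lipid genes lie right of it.

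On the length-normalised scale the roles took different shares. The 5 V0 genes summed to 481 ± 13.9 TPM untreated (SD, n = 3), 645 ± 20.5 at 6 h and 563 ± 44.8 at 24 h, and the 8 V1 genes to 375 ± 12.6, 532 ± 12.6 and 506 ± 2.41. The 15 glycosidases and sulfatases summed to 576 ± 10.6 TPM untreated, 567 ± 10.2 at 6 h and 734 ± 25.5 at 24 h. The V0 and V1 sums stood highest at 6 h, and the sum of glycosidases and sulfatases at 24 h. The 2 accessory subunits summed to 265 ± 5.43, 311 ± 13.0 and 367 ± 28.3 TPM in the same order and stood highest at 24 h, as did the proteases at 1280 ± 37.5, 1348 ± 33.9 and 1682 ± 112. The lipid genes summed to 1629 ± 39.6, 1844 ± 103 and 2518 ± 152 TPM in the same order, and the membrane proteins to 1060 ± 30.1, 1512 ± 72.1 and 1714 ± 51.6. These sums were not tested.

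Changes of genes with and without the printed promoter core are given as a description. Among the 39 genes with a promoter entry, 7 of the 8 with TCACGTGA rose and 0 fell at 6 h, with a median log2 fold change of 0.62, and 22 of the 31 without it rose and 2 fell, with a median of 0.40. At 24 h 7 of 8 with the core rose and 0 fell (median 0.76), and 21 of 31 without it rose and 5 fell (median 0.45). At 24 h against 6 h the medians were 0.02 and 0.03. Of all genes tested 31.6% were called higher and 33.3% lower at 6 h, and 23.3% and 24.6% at 24 h. The 6 h calls of GAA and GALNS, both with the core, ended on the log2(TPM + 1) scale. Changes of core-bearing genes outside the list were not examined, and the difference between genes with and without the core was not tested.

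Transcript use within a gene was tested with edgeR's diffSpliceDGE over 65830 transcripts. Of the 335 transcripts of listed genes 3 were called at 6 h against untreated, where 2.35% of all were, 0 at 24 h, where 0.602% of all were, and 2 at 24 h against 6 h, where 1.92% of all were. At 24 h 15 of the 335 had an unadjusted p under 0.05 in diffSpliceDGE, and limma's diffSplice on log2(TPM + 1) called 10. The 3 at 6 h were ATP6V1D-209, CD63-208 and CLN3-229, and the 2 at 24 h against 6 h were ATP6V1D-206 and GALNS-212. A single one moved by at least 10 percentage points of its gene: ATP6V1D-209 made up 14.1%, 14.6% and 12.1% of ATP6V1D at 6 h, against 1.56%, 1.40% and 1.14% in untreated cells (adjusted p = 0.00791). The groups were far apart, but the test does not cover the uncertainty in how reads are divided among transcripts of a gene. LAMP2 is spliced into forms with different membrane tails, and LAMP2-201 made up 62.0 ± 3.41% of LAMP2 untreated, 67.2 ± 1.13% at 6 h and 60.3 ± 0.438% at 24 h. No LAMP2 transcript was called.

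Between constructs, fewer lysosomal genes were called than under LY2835219, and so were fewer of all genes. Against mCherry 45.3% of the family were called with EWS-FLI1, where 21.1% of all genes were. With EWS-FLI1mut these shares were 18.9% and 7.15%, and with EWS(YS37)-FLI1 28.3% and 21.7%. At 6 h of LY2835219 they were 83% and 64.9%, and at 24 h 86.8% and 48%. In untreated EWS-FLI1 cells 18 of 53 genes were higher and 6 lower than in mCherry cells, where 21.1% of all genes were called, 11.1% higher and 9.95% lower, and the family's median was 0.17 against -0.02 for all genes. With transcript length offsets 12 were higher and 3 lower. Of the 61 other lysosomal hydrolases and membrane proteins 2 were higher and 11 lower in this comparison (median -0.03), and of 20 further V-ATPase genes 0 were higher and 2 lower. CTSF had 18.7, 19.9 and 19.2 CPM with EWS-FLI1, against 9.07, 10.5 and 12.6 with mCherry. The groups did not overlap, and the log2 fold change was 0.84 ± 0.12 (SE; edgeR adjusted p = 2.94e-05). GALNS had 74.4, 82.9 and 76.7 CPM with EWS-FLI1, against 45.7, 49.9 and 48.0 with mCherry, again apart (0.71 ± 0.08). SMPD1 rose by 0.64 ± 0.11, CTSL by 0.53 ± 0.06, ARSB by 0.47 ± 0.10 and CTSD by 0.44 ± 0.08. Among the falls, LIPA had 22.03, 18.5 and 22.6 CPM with EWS-FLI1, against 27.1, 30.4 and 29.8 with mCherry, a log2 fold change of -0.47 ± 0.09 (SE; edgeR adjusted p = 0.00089). NPC1 had 35.3, 29.2 and 33.5 CPM with EWS-FLI1, against 47.6, 45.8 and 40.0 with mCherry (-0.44 ± 0.09). For both genes the groups stood apart. CTSC (-0.34 ± 0.05) and ASAH1 (-0.31 ± 0.06) were also lower. The calls of LIPA, ASAH1, ARSB and ATP6V1E1 ended with transcript length offsets and on the TPM scale. Of the pump, ATP6V0D1 (0.42 ± 0.08), ATP6V1H (0.28 ± 0.09) and ATP6AP2 (0.22 ± 0.06) were higher, and ATP6V1E1 (-0.29 ± 0.08) and ATP6V1B2 (-0.23 ± 0.06) lower, where the calls of ATP6V1H, ATP6V1E1 and ATP6V1B2 were lost without single libraries.

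With EWS-FLI1mut 9 of 53 genes were higher and 1 lower than with mCherry, where 7.15% of all genes were called, 3.53% higher and 3.62% lower, and the family's median was 0.07. With transcript length offsets 5 were higher and 1 lower, and on log2(TPM + 1) without a filter 5 and 0. Of the 61 other lysosomal genes 0 were higher and 1 lower. CTSB had 687, 702 and 713 CPM with EWS-FLI1mut, against 395, 446 and 464 with mCherry. The 2 groups did not overlap, at 0.69 ± 0.07 (SE; edgeR adjusted p = 2.43e-06). NPC2 had 301, 332 and 355 CPM with EWS-FLI1mut, against 175, 222 and 236 with mCherry, also apart (0.64 ± 0.09), and FUCA1 rose by 0.70 ± 0.12. SGSH (0.61 ± 0.14) and SMPD1 (0.51 ± 0.11) passed as higher, but not without EWS-FLI1mut replicate 1 and mCherry replicate 2 in that order. TPP1 (0.39 ± 0.08) was higher too, and GLB1 was the lower gene (-0.23 ± 0.06), a call lost without single libraries. The calls of SGSH, SMPD1 and TPP1 ended with transcript length offsets. Of the 15 V-ATPase genes 0 were called with edgeR and 0 with DESeq2, and 1 had an unadjusted edgeR p under 0.05.

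With EWS(YS37)-FLI1 13 genes were higher and 2 lower than with mCherry, where 21.7% of all genes were called, 11.5% higher and 10.2% lower, and the family's median was 0.14. SGSH had 22.3, 19.1 and 18.99 CPM with EWS(YS37)-FLI1, against 9.01, 8.22 and 9.39 with mCherry. The groups stood apart, at 1.18 ± 0.14 (SE; edgeR adjusted p = 8.57e-07). ATP6V0B (0.38 ± 0.07), ATP6V1D (0.27 ± 0.06) and ATP6V0E1 (0.24 ± 0.08) were higher, as was ATP6V1F (0.40 ± 0.11), whose call was lost without single libraries. NPC1 (0.31 ± 0.09) and SMPD1 (0.33 ± 0.11) passed as higher and CTSL (-0.19 ± 0.06) as lower, but not without single libraries, and NPC1 was -0.020 on the TPM scale. In all, 7 genes were left called without EWS(YS37)-FLI1 replicate 3, 8 without its replicate 1 and 9 without mCherry replicate 2. On the log2(TPM + 1) scale 5 genes were higher and 2 lower, and with transcript length offsets 7 and 1. Of the 61 other lysosomal genes 8 were higher and 9 lower. The comparisons of the 3 constructs share the mCherry libraries.

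The fusions were also set against each other. EWS-FLI1 cells had 10 genes higher and 7 lower than EWS-FLI1mut cells, where 16.3% of all genes were called, 8.78% higher and 7.51% lower. CTSF (0.93 ± 0.12), GALNS (0.51 ± 0.08) and IDS (0.37 ± 0.08) were higher with EWS-FLI1, and CTSB (-0.59 ± 0.07), NPC2 (-0.52 ± 0.09) and NPC1 (-0.42 ± 0.09) lower. The 17 calls numbered 11 without EWS-FLI1mut replicate 2, 8 with transcript length offsets and 7 on the log2(TPM + 1) scale, where that of IDS ended. EWS-FLI1 cells had 12 genes higher and 13 lower than EWS(YS37)-FLI1 cells, where 31.1% of all genes were called, 14.8% higher and 16.3% lower, with 12 higher and 4 lower on the log2(TPM + 1) scale and 8 and 7 with transcript length offsets. CTSL (0.72 ± 0.06), CTSF (0.68 ± 0.12) and GALNS (0.58 ± 0.08) were higher with EWS-FLI1, and SGSH (-0.86 ± 0.13), NPC1 (-0.76 ± 0.09) and LIPA (-0.71 ± 0.09) lower, where the LIPA call ended on the TPM scale. NPC1 had 35.3, 29.2 and 33.5 CPM with EWS-FLI1, against 54.6, 48.3 and 62.9 with EWS(YS37)-FLI1, without overlap. Of the pump 2 genes were higher and 5 lower with EWS-FLI1, among them ATP6V1D (-0.36 ± 0.06) and ATP6V1B2 (-0.33 ± 0.06).

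**Figure D5:**
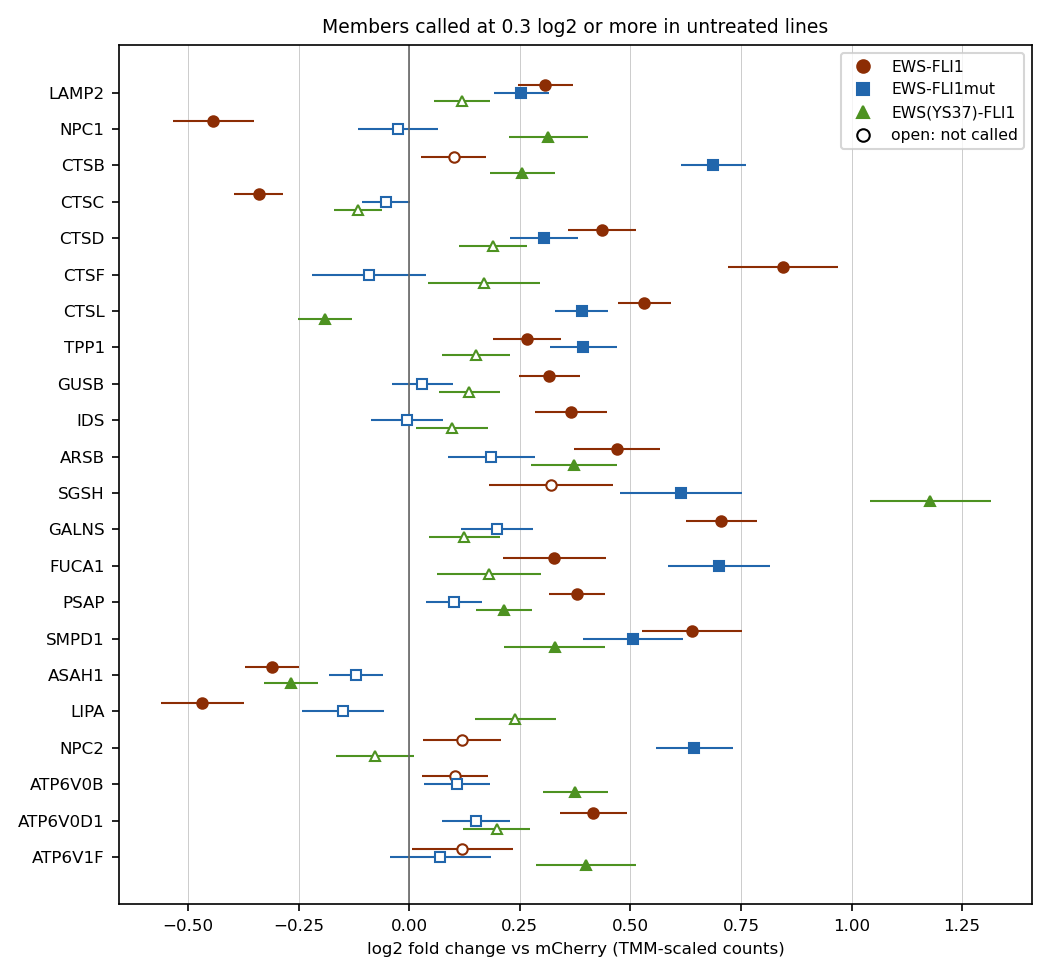
Log2 fold changes against mCherry of 22 genes called with an absolute value of at least 0.3 in at least 1 construct, for EWS-FLI1, EWS-FLI1mut and EWS(YS37)-FLI1. SGSH reaches 1.18 with EWS(YS37)-FLI1, CTSF 0.84 with EWS-FLI1 and CTSB 0.69 with EWS-FLI1mut.

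Lists of neighbouring genes were read beside the family under LY2835219. Of 61 other lysosomal hydrolases and membrane proteins 27 rose and 14 fell at 6 h, 38 rose and 9 fell at 24 h, and 28 were higher and 15 lower at 24 h than at 6 h. That is 67.2%, 77% and 70.5% called, where 64.9%, 48% and 62.9% of all genes were, so the count at 6 h was near that of all genes. CD68, a lysosomal glycoprotein, had 18.4 ± 1.36 CPM at 24 h, against 2.22 ± 0.981 in untreated cells (SD, n = 3 each), a log2 fold change of 3.06 ± 0.22. IFI30, a lysosomal thiol reductase, had 52.9 ± 5.67 CPM at 24 h, against 12.3 ± 2.03 (2.10 ± 0.11), and the cystine exporter CTNS rose by 1.19 ± 0.13 at 6 h. CLN8 rose (1.87 ± 0.31) and the nucleoside transporter SLC29A3 fell (-1.47 ± 0.19) at 6 h, and the heparanase HPSE fell at 24 h (-1.47 ± 0.16). Of 20 tested further V-ATPase subunits and assembly factors 4 rose and 10 fell at 6 h, 6 rose and 4 fell at 24 h, and 12 were higher and 4 lower at 24 h than at 6 h, or 70%, 50% and 80% called. At 6 h more of them fell than rose, unlike the pump genes of the family. The 21 genes of this list summed to 268 ± 7.83 TPM untreated, 225 ± 14.2 at 6 h and 286 ± 6.90 at 24 h (SD, n = 3). ATP6V0A4, of low level, fell at 6 h (-2.16 ± 0.54) to 0.373 ± 0.108 CPM, against 1.69 ± 0.640 in untreated cells. Of 20 genes of mannose 6-phosphate tagging and sorting 10 rose and 6 fell at 6 h, and 9 rose and 3 fell at 24 h, or 80% and 60% called. The receptor M6PR rose at 6 h (0.95 ± 0.04), the tagging subunit GNPTG at 24 h (1.02 ± 0.08) and the trafficking regulator LYST at 6 h (1.74 ± 0.10), and the sorting receptor SORL1 fell at 24 h (-1.31 ± 0.12).

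A list of 22 genes held MiT/TFE factors, the Rag and folliculin control above them, and autophagy or target genes such as SQSTM1, GABARAPL1 and GPNMB. Of these 18 rose and 2 fell at 6 h, 14 rose and 2 fell at 24 h, and 7 were higher and 11 lower at 24 h than at 6 h. That is 90.9%, 72.7% and 81.8% called, beside the same 64.9%, 48% and 62.9% of all genes. RRAGC, a Rag GTPase, had 124 ± 5.59 CPM at 6 h, against 31.7 ± 3.02 in untreated cells (1.96 ± 0.07). SQSTM1, the autophagy receptor p62, had 928 ± 24.0 CPM at 6 h, against 239.7 ± 7.21 in untreated cells (1.95 ± 0.06). RRAGD (1.95 ± 0.10), the folliculin partner FNIP1 (1.32 ± 0.07) and GPNMB (2.99 ± 0.11), a glycoprotein known as a MITF target, rose at 24 h. The factor MITF itself fell to 3.74 ± 0.662 CPM at 6 h, against 20.2 ± 1.92 in untreated cells (-2.43 ± 0.13), and GABARAPL1, which coats autophagosomes, fell at 6 h (-1.88 ± 0.11). Of 12 tested cathepsin inhibitors and galectins 7 rose and 3 fell at 6 h, and 3 rose and 1 fell at 24 h, or 83.3% and 33.3% called, the second below the 48% of all genes. SERPINB8 (1.44 ± 0.10), the cystatin CSTB (0.89 ± 0.07) and LGALS8 (0.88 ± 0.08), a galectin that marks damaged lysosomes, rose at 6 h, and LGALS3, another such galectin, rose at 24 h (1.14 ± 0.09).

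Markers of cell types were read because lysosomal genes are high in osteoclasts and macrophages. The marker lists are not separate from the lists above. ACP5 and CD68 also belong to the other lysosomal hydrolases and membrane proteins, so their rises are the same values read again. They give no separate information on cell type. The osteoclast list and the list of further V-ATPase genes also had the same lowest change for EWS-FLI1mut against mCherry (-2.55). Of 8 tested osteoclast markers of 12, 2 rose and 3 fell at 6 h and 3 rose and 2 fell at 24 h. ACP5, the osteoclast acid phosphatase, had 1.47 ± 0.341 CPM at 24 h, against 0.0699 ± 0.0606 CPM in untreated cells. Of 6 tested macrophage and blood markers of 12, 2 rose and 0 fell at each time, CD68 and CSF1R. The summed TPM of the 12 was 4.46 to 9.98 in untreated cells, 10.6 to 14.1 at 6 h and 21.4 to 24.9 at 24 h. CD68 made up most of it at 24 h. AIF1 was at 0, and the leukocyte gene PTPRC stood at 0.22 to 1.39 TPM. Of 8 tested osteoblast markers of 12, 2 rose and 3 fell at 6 h and 3 rose and 0 fell at 24 h, and the osteoblast factor RUNX2 stood at 46.4 ± 1.10 CPM at 6 h, against 70.7 ± 2.86 in untreated cells. Of 7 tested epithelial markers 2 rose and 0 fell at 6 h and 0 rose and 6 fell at 24 h, and of 8 endothelial markers 3 rose and 1 fell, and 2 rose and 3 fell. At 6 h 62.5% of osteoclast and osteoblast, 33.3% of macrophage and blood, 28.6% of epithelial and 50% of endothelial markers tested were called, none of them above the 64.9% of all genes. At 24 h these were 62.5%, 37.5%, 33.3%, 85.7% and 62.5%, taking osteoclast before osteoblast, where 48% of all genes were called. In bulk libraries fewer cells of a type and less RNA per cell cannot be told apart, and the part of these markers in the lysosomal changes was not tested.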

How the data were processed

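PolyA RNA of 18 libraries was measured, in 6 groups of 3. The authors deposited 1 transcript table per library with kallisto estimated counts (expected counts, not normalised), TPM and an effective transcript length in bases, per the file headers, and kallisto 0.46, CASAVA and hg38 are named in the submitters' processing notes. The transcript set, index options and strandedness are not given in the sources used here, so a gene and its antisense partner cannot be told apart. The deposited effective length, a unit other than an expression level, entered the length offsets. With GENCODE 29 giving each transcript its gene, estimated counts were added up by gene and then rounded. Libraries held 16261034 to 20270637 estimated counts and 19738 to 20508 genes with a count.

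The tests used edgeR 4.0.16 (R 4.3.3). After filterByExpr had kept 16786 genes and TMM factors were set, 1 quasi-likelihood model was fitted to the 18 libraries (12 residual degrees of freedom, biological coefficient of variation 8.77%), with Benjamini-Hochberg adjustment over all genes tested and a threshold of 0.05. A standard error was derived by dividing the size of the log2 fold change by the root of its F statistic. Transcript use was tested with diffSpliceDGE. On data simulated for 6 h against untreated, edgeR called 99.02% of genes changed 2-fold and 69.39% of those changed 1.5-fold, and diffSpliceDGE 46.74% and 16.67% of transcripts. The simulation changed only a small set of genes or transcripts, up and down with equal odds, with the same spread for all. In the data 64.9% of genes were called at 6 h, so these rates do not cover the dependence on scaling.

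Alternatives were DESeq2 1.42.0, DESeq2's size factors, upper-quartile or no scaling, no filter, transcript length offsets, only the 6 libraries compared, the replicate number as a block, leaving out each library, and limma 3.58.1 on log2(TPM + 1) or log2(TPM + 0.1). Leaving out mitochondrial genes and adding the unmatched NEU1 copies were chosen after the data were seen. The replicate numbers were not used to pair libraries in the main fit. The 54 genes and the other gene lists were chosen with earlier results of these data known. The naming rule took up to 12 called rises and 12 falls of largest log2 fold change under LY2835219, up to 6 each way between constructs, and up to 4 genes of each other list. Not all of these are printed, and further genes were named after their values were seen so that every gene of the family is given.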

Additional observations from a re-analysis of the deposited data

How the results depend on the processing

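With the replicate number as a block 44, 45 and 42 listed genes were called at 6 h, at 24 h and at 24 h against 6 h, and 4, 0 and 0 transcripts. Same-numbered libraries deviated together weakly or not at all (r between -0.0377 and 0.0621). For EWS-FLI1mut against mCherry their r were 0.0610, 0.0621 and 0.0406, and those of the other pairs were negative. Weak correlations cannot exclude a pairing. The numbers were not used to pair libraries, and the block is given once. Without one library at a time the calls ranged from 40 to 45, 41 to 44 and 36 to 43 in those comparisons, from 22 to 25 for EWS-FLI1, 7 to 9 for EWS-FLI1mut and 7 to 18 for EWS(YS37)-FLI1 against mCherry, and from 11 to 16 and 17 to 22 for EWS-FLI1 against EWS-FLI1mut and EWS(YS37)-FLI1. Transcripts called ranged from 1 to 3, 0 to 1 and 0 to 2, and limma's diffSplice called 33, 10 and 26. In the 5 construct comparisons, in the order just used, transcript length offsets called 15, 6, 8, 8 and 15 genes. On log2(TPM + 1) EWS(YS37)-FLI1 had 7 calls, and EWS-FLI1 had 7 against EWS-FLI1mut and 16 against EWS(YS37)-FLI1. On log2(TPM + 0.1) these were 7, 7 and 16, with 6 for EWS-FLI1mut. Without the filter log2(TPM + 1) gave 28 at 6 h and 15, 5, 7, 6 and 14 in the construct comparisons. With DESeq2, DESeq2's size factors, upper-quartile or no scaling, no filter, only the 6 libraries compared, no mitochondrial genes or the NEU1 copies, the counts of called listed genes stayed within 1.5 times those reported. Directions turned as follows, and the cause was not tested. Without scaling factors CTSL was -0.057 and GUSB -0.066 at 6 h, and LAMP2 was 0.060 and ATP6AP2 0.072 at 24 h against 6 h. With length offsets SCARB2 was -0.021 and ARSB 0.16 at 24 h, and GM2A -0.51 at 24 h against 6 h. On log2(TPM + 1), with the filter or without it, CTSD was -0.042, CTSF -0.096, CTSL -0.20, CTSZ -0.10, GUSB -0.26, IDS -0.060 and PPT1 -0.056 at 6 h, SCARB2 -0.084, ARSB 0.082 and ATP6V0B -0.0021 at 24 h, and GM2A -0.25, ATP6V0D1 0.0021 and ATP6V1C1 0.012 at 24 h against 6 h, and NPC1 was -0.020 for EWS(YS37)-FLI1 against mCherry. With a pseudocount of 0.1 the values were -0.043, -0.10, -0.20, -0.10, -0.26, -0.061, -0.056, -0.086, 0.088, -0.0021, -0.26, 0.0021, 0.012 and -0.021 for these genes in the same order. At 6 h 48.71% of all called genes were higher, against 32.18% without scaling factors, and at 24 h against 6 h 51.78%, against 70.37%. Depth limits CTSK, ATP6V0A1 and IDUA, which had the lowest levels of the tested genes.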
